A study of Mus musculus with 18 samples.

Results

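The Wnt effector genes Tcf7, Tcf7l1, Tcf7l2, Lef1, Ctnnb1 and Axin2 were examined for binding of Pitx1 in mouse hindlimb buds and of Tbx5 in mouse forelimb buds. A summit, the highest point of a peak of chromatin immunoprecipitation followed by sequencing (ChIP-seq), counted for one of these genes when that gene was its nearest protein-coding gene and lay within 100 kb; summits inside the gene count as distance 0. The 6 genes, of 21883 protein-coding genes, received 95 of 54941 Pitx1 summits and 14 of 10273 Tbx5 summits. Of 18 samples in the series, the summit lists of 2 were used. The Pitx1 sample is hindlimb tissue at e11.5 and the Tbx5 sample forelimb tissue at e10.5, both from wild-type CD1 embryos, an outbred strain, and both made with a homemade antibody on paired-end libraries. Each factor has 1 sample with no replicate and the read depth is unknown, so no value has a replicate error and no test between the factors or between genes was possible. The lists differ at once in factor, limb, stage and antibody, which cannot be told apart. The genes were chosen by earlier results on these same summit counts and scores, so the values below are a description.

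Wnt signals stabilise β-catenin, the protein product of Ctnnb1, which enters the nucleus and binds DNA only through partners. These partners are the high mobility group proteins encoded by Tcf7 (TCF-1), Tcf7l1 (TCF-3), Tcf7l2 (TCF-4) and Lef1, which repress targets together with Groucho/TLE corepressors and activate them together with β-catenin. In mice, Lef1 and Tcf7 act redundantly in limb outgrowth and formation of the apical ridge, Ctnnb1 is needed in both the ectoderm and the mesenchyme of the bud, and Tcf7l2 marks the connective tissue cells that pattern limb muscle. Axin2 is a scaffold of the complex that degrades β-catenin and a widely used feedback target of the pathway; it acts mainly outside the nucleus, so the 6 genes are nuclear effectors with one inhibitor.

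Of the promoter windows listed for these genes, the 2 that hold a summit are shown first, with 1 that holds none for comparison. The RefSeq promoter table for GRCm38.p6, the assembly that mm10 represents, lists 12 transcription start sites and covers all 6 genes. Each window covers 250 bases before to 50 after the start. Of the 12 windows, 1 held a Pitx1 summit and 1 a Tbx5 summit, both at Tcf7l2, against 8.96% and 1.18% of all 32851 windows of the table. The only window of Axin2 is at a start inside the gene, at position 108920349. It does not cover the 5′ end of Axin2 at 108917828, where a Pitx1 summit of score 12.2 lay 102 bp upstream. The first sequence is the window at the 5′ end of Tcf7l2, on the plus strand at chr19:55741560-55741859, shown because the Tbx5 summit at position 55741820 lies in it, 10 bp after the listed start. Capitals in it mark the 11 bases centred on that summit. The second is an internal start of Tcf7l2, on the plus strand at chr19:55895071-55895370, which holds the Pitx1 summit at position 55895305, 16 bp before that start. Capitals in it mark the single match to TAATCC, the core bound by bicoid-type homeodomain proteins such as Pitx1. The third is an internal start of Lef1, on the plus strand at chr3:131112541-131112840, in which capitals mark 2 matches to AGGTGT, the core bound by T-box proteins; it is shown as a window with T-box letters and no Tbx5 summit nearby.
Tcf7l2 5′ start: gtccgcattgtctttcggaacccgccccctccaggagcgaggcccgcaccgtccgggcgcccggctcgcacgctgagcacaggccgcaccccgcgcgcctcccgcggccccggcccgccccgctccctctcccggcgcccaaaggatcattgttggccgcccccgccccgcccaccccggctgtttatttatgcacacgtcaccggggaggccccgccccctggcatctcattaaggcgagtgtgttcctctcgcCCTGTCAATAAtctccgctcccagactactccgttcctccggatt
Tcf7l2 internal start: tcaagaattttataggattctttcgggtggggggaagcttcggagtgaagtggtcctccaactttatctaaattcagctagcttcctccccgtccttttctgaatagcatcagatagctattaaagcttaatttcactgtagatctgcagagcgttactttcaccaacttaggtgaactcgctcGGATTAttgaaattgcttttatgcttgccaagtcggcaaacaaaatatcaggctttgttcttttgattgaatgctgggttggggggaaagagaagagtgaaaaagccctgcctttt
Lef1 internal start: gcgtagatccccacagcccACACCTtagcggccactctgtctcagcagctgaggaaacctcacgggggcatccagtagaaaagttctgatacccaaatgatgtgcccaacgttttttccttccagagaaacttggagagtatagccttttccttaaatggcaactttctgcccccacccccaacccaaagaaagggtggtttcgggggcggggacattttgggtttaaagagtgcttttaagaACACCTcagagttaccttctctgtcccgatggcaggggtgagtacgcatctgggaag
Both strands of every window were searched for TAATCC. They were also searched for the T-box core AGGTGT, and for the core bound by Tcf/Lef proteins in the form CTTTGAT and, as a variant with another last base, in the form CTTTGAA. The window at the 5′ end of Tcf7l2 held none of these. The homeodomain match at the internal start of Tcf7l2 reads GGATTA on the strand shown, at bases 185 to 190 of the window, and its first base lies 50 bp from the Pitx1 summit. It was the only one in the 12 windows, while 7.06% of all windows held one. AGGTGT was found in 2 of the 12 windows, both internal starts of Lef1, and in 13.7% of all windows. The 2 matches in the window shown lay over 22 kb from the nearest Tbx5 summit, at 22599 and 22823 bp, and the match in the other, at 131156305, lay 1458 bp from one. The Tcf/Lef core was found in none of the 12 windows and in 8.65% of all windows. No match overlapped one of another motif. The letters describe these windows only.

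Binding was spread unevenly over the 6 genes. Tcf7l2, Lef1, Tcf7l1 and Axin2 held 15 to 38 Pitx1 summits each, while Tcf7 and Ctnnb1 held 2 each. Tbx5 summits were assigned to Tcf7l2, Lef1 and Tcf7l1 and to none of the others. All 6 genes had a Pitx1 summit, against 54.5% of protein-coding genes, 3 of the 6 had a Tbx5 summit, against 18.7%, and the same 3 had both, against 16.8%. Because longer genes collect more summits, counts were also divided by the domain, all positions whose summits would go to that gene. The domains of the 6 genes were 75.3 to 349 kb long, against a median of 45.1 kb over all genes. The shares of genes with a summit do not allow for this. The 6 domains add up to 1127 kb and held 8.43 Pitx1 summits per 100 kb, against 2.35 over all genes, a ratio of 3.59 (exact Poisson 95% interval 2.91 to 4.39). For Tbx5 they held 1.24 per 100 kb, against 0.415 over all genes, a ratio of 2.995 (1.64 to 5.03). These intervals reflect counting error alone, and neighbouring summits are not independent. Leaving out Tcf7l2 gave ratios of 3.12 for Pitx1 and 1.55 for Tbx5, which then rests on 5 summits with an interval of 0.503 to 3.62.

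**Figure D1:**
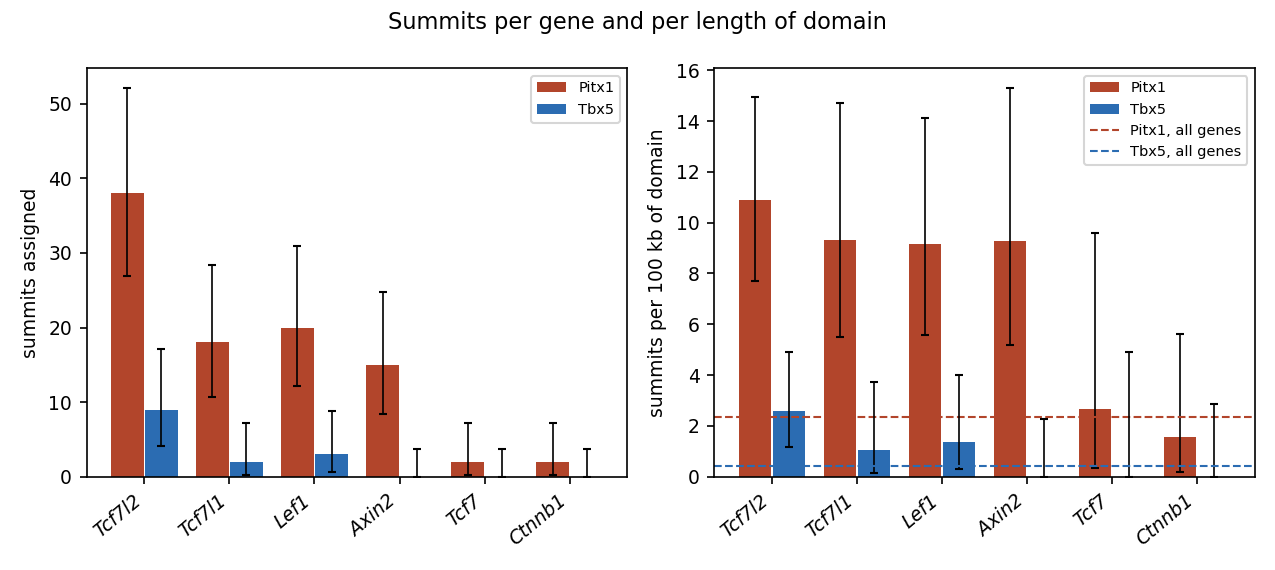
Left, Pitx1 (red) and Tbx5 (blue) summits assigned to each gene; right, the same per 100 kb of assignment domain, with dashed lines at the values over all protein-coding genes. Error bars are exact Poisson 95% intervals, which cover counting only. Per length, Tcf7l2, Tcf7l1, Lef1 and Axin2 lie close together for Pitx1, at 9.15 to 10.9, and Tcf7 and Ctnnb1 lie near the line of all genes.

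Per length of domain, the order for Pitx1 was Tcf7l2 (10.9 summits per 100 kb), Tcf7l1 (9.31), Axin2 (9.28), Lef1 (9.15), Tcf7 (2.66) and Ctnnb1 (1.55). The intervals of the first 4 overlap throughout, from 5.20 for the lowest bound to 15.3 for the highest, so their order is not resolved. The interval of Ctnnb1 (0.188 to 5.597) reaches into those of Tcf7l1, Axin2 and Lef1 and ends below that of Tcf7l2 (7.70 to 14.9). That of Tcf7 (0.322 to 9.60) overlaps them all. For Tbx5 the order was Tcf7l2 (2.58 per 100 kb, 1.18 to 4.89), Lef1 (1.37, 0.283 to 4.01) and Tcf7l1 (1.03, 0.125 to 3.74), and their intervals overlap. The Tbx5 intervals of Lef1 and Tcf7l1 include the 0.415 of all genes, and that of Tcf7l2 lies above it. This is a description and no test, since the genes were chosen on these counts and neighbouring summits are not independent.

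Tcf7l2 (gene 21416, plus strand, chr19:55741797-55933659) was the most heavily occupied of the 6. It held 38 Pitx1 summits (26.9 to 52.2) and 9 Tbx5 summits (4.12 to 17.1) in a domain of 349 kb. The 611 genes with a domain of 80 to 125% of that length had a median of 7 Pitx1 summits, with quartiles of 4 and 14, and a median of 1 Tbx5 summit, with quartiles of 0 and 3. By number of summits Tcf7l2 ranked 54 among the 21883 genes for Pitx1 and 54 for Tbx5. Inside the gene lay 25 of its Pitx1 summits, with 4 upstream and 9 downstream, and 8 of its 9 Tbx5 summits. Scores are those of the deposited lists, taken to be −log10 q values, higher for a stronger peak. Its Pitx1 scores ran between 2.89 and 104 with a median of 9.55, and its Tbx5 scores between 3.60 and 42.6 with a median of 7.64. The medians of the whole lists were 7.07 for Pitx1 and 8.29 for Tbx5. Of the 38 Pitx1 summits of Tcf7l2, 23 scored above the median of the list, as did 4 of its 9 Tbx5 summits. The Tcf7l2 profile thus held many sites of moderate score and also some of high score. Its 5 highest Pitx1 scores were 104, 74.2, 55.5, 46.2 and 42.2.

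The highest Pitx1 score of Tcf7l2, 104, stood at position 55815253, with a Tbx5 summit of score 13.9 only 19 bp away. Its highest Tbx5 score, 42.6, stood at position 55764260, 3470 bp from the nearest Pitx1 summit, which scored 2.89. At the 5′ end, 5 Pitx1 summits fell within 7197 bp, between positions 55741332 and 55748528, with scores of 5.92 to 35.4. Farther out, 5 Pitx1 summits between 81.3 and 88.8 kb downstream of the gene, with scores of 5.92, 42.2, 27.3, 30.8 and 13.6, had no Tbx5 summit within 64.3 kb. In all, 7 of the 38 Pitx1 summits of Tcf7l2 had a Tbx5 summit within 200 bp, 6 of them inside the gene and 1 downstream, and none in this group.

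**Figure D2:**
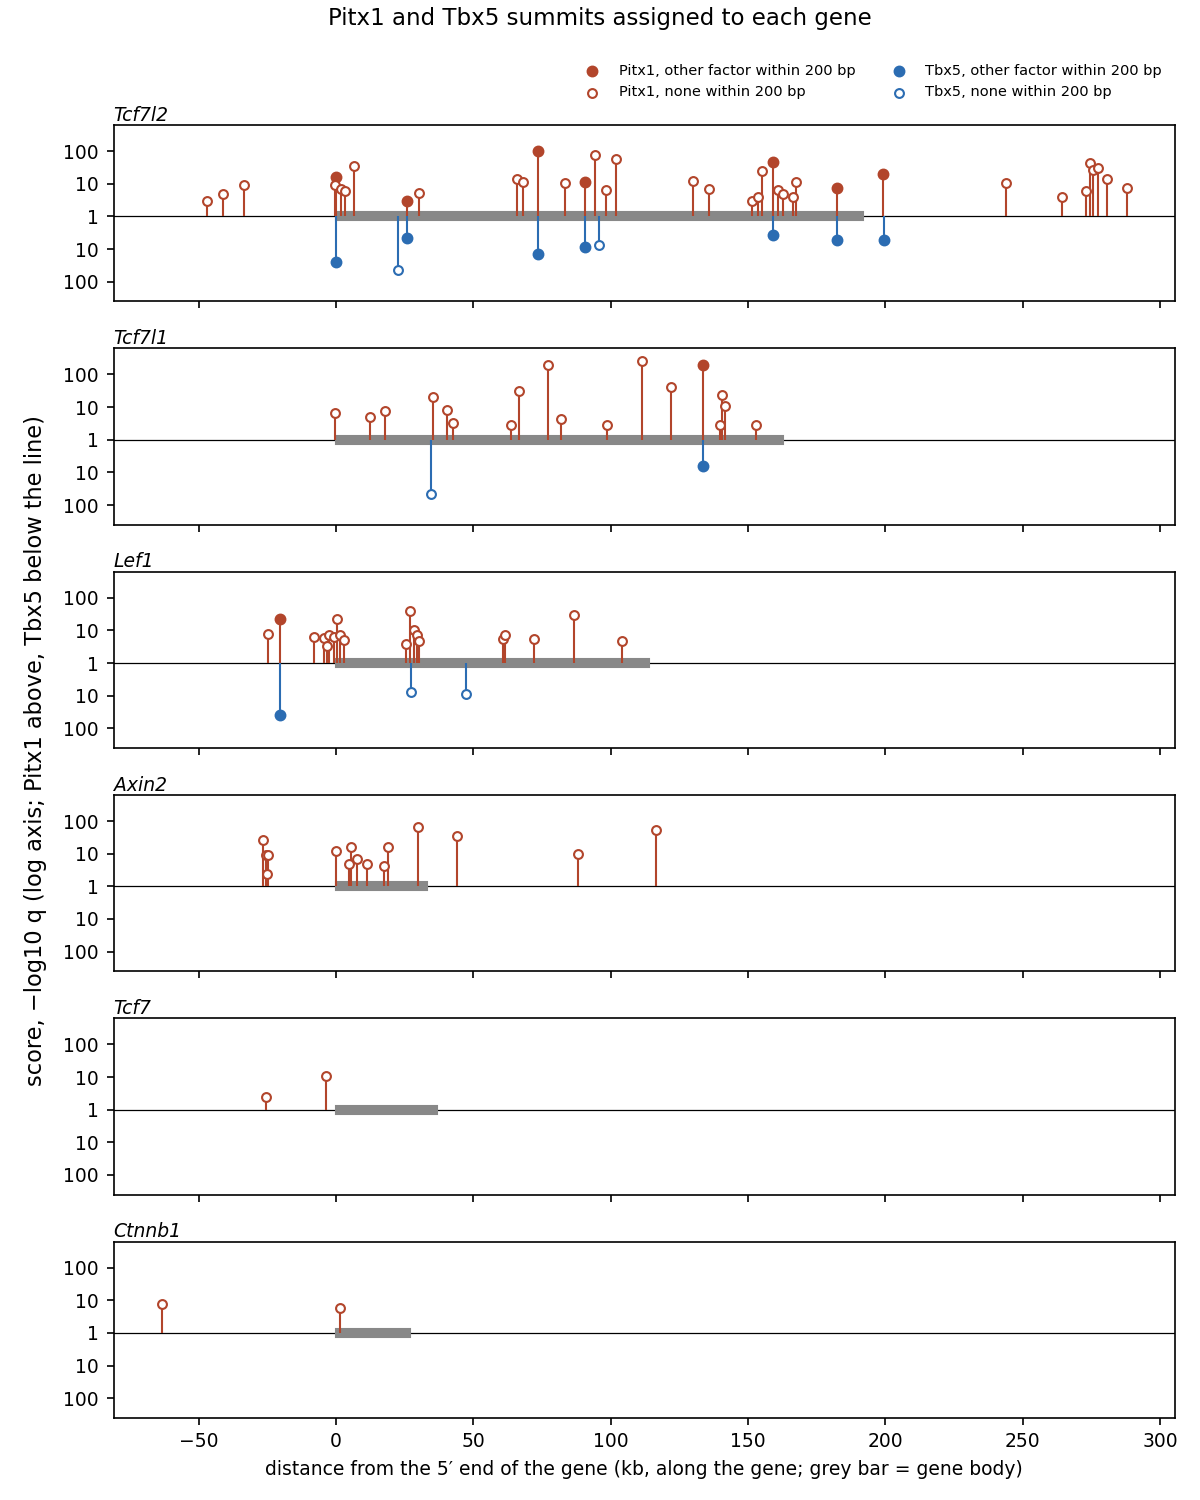
Each panel shows 1 gene, with distance from its 5′ end in kb along the gene and the gene body as a grey bar. Stems above the line are Pitx1 summits and stems below it Tbx5 summits, their height giving the score as −log10 q on a log axis; filled points have a summit of the other factor within 200 bp. Filled points lie mostly at Tcf7l2, the tallest Pitx1 stems stand inside Tcf7l1, and Axin2, Tcf7 and Ctnnb1 have no stem below the line.

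Tcf7l1 (gene 21415, minus strand, chr6:72626371-72789045), which in mice acts mainly as a repressor, carried the highest Pitx1 scores of the 6 genes. It held 18 Pitx1 summits (10.7 to 28.4) and 2 Tbx5 summits (0.242 to 7.22). Scores of 259 at position 72677613, 193 at 72655538 and 192 at 72711797 ranked 171, 334 and 341 in the list of 54941, and all 3 lie inside the gene. The other 15 Pitx1 scores lay at 41.2 or below. Of its 18 Pitx1 summits 17 were inside the gene, which makes up 84.1% of its domain, and the remaining summit, with a score of 6.49, lay 463 bp upstream of the start. Its 2 Tbx5 summits were also inside. The one with the higher score, 45.7, at position 72754333 lay 621 bp from a Pitx1 summit of score 19.7. The other, with a score of 6.40, lay 40 bp from the Pitx1 summit of score 193. Genes of like domain (1928 genes) had a median of 3 Pitx1 summits, with quartiles of 1 and 6.

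Lef1 (gene 16842, plus strand, chr3:131110297-131224357) held 20 Pitx1 summits (12.2 to 30.9) and 3 Tbx5 summits (0.619 to 8.77), many of the Pitx1 ones near its start. Within 9176 bp, from position 131102412 to 131111587, stood 7 Pitx1 summits with scores of 3.35 to 22.2, and the nearest Tbx5 summit was 12.5 kb away. In all, 13 of its Pitx1 summits were inside the gene and 7 upstream, with none downstream. Its median Pitx1 score of 6.78 lay below the 7.07 of the whole list, and its highest was 39.3 at position 131137291. Its highest Tbx5 score, 38.6, stood 20.3 kb upstream at position 131089961, and a Pitx1 summit of score 22.2 lay 100 bp from it. The other Tbx5 summits of Lef1 scored 7.64 and 8.95 and were inside the gene. Genes of like domain (1652 genes) had a median of 3 Pitx1 summits, with quartiles of 1 and 7.

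Tcf7 (gene 21414, minus strand, chr11:52246527-52283383), the closest functional partner of Lef1 in the mouse limb, held few sites. Its 2 Pitx1 summits (0.242 to 7.22) were both upstream, with a score of 10.9 at position 52286958, 3.58 kb from the gene, and of 2.45 at 52309022, 25.6 kb from it. No Tbx5 summit was assigned to it, and the nearest was 333143 bp from the second of these. At the density of all genes its domain of 75.3 kb would hold 1.77 Pitx1 and 0.312 Tbx5 summits, so 2 and 0 differ little from the background. Lef1 and Tcf7 thus had 20 and 2 Pitx1 summits in domains of 219 and 75.3 kb.

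Ctnnb1 (gene 12387, plus strand, chr9:120933400-120960507), which encodes β-catenin, held 2 Pitx1 summits (0.242 to 7.22) and no Tbx5 summit. One, with a score of 5.92 at position 120934772, was inside the gene, and the other, with a score of 7.67 at 120869976, lay 63.4 kb upstream. Its domain of 129 kb would hold 3.03 Pitx1 and 0.535 Tbx5 summits at the density of all genes. The ratio for Pitx1 was 0.660 (0.0800 to 2.39), and 2743 genes of like domain had a median of 2.

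Axin2 (gene 12006, plus strand, chr11:108917828-108950783) held 15 Pitx1 summits (8.40 to 24.7) and no Tbx5 summit. Its domain of 162 kb would hold 3.79 Pitx1 summits at the density of all genes, a ratio of 3.96 (2.21 to 6.53). Upstream lay 5, inside 7 and downstream 3. The highest scores were 66.3 at position 108947617 inside the gene, 53.4 at 109034431, 83.6 kb downstream, and 35.4 at 108961768, 10.98 kb downstream. A group of 4 stood 24.6 to 26.5 kb upstream within 1889 bp, with scores of 2.45 to 25.5, and a summit of score 12.2 lay 102 bp upstream of the 5′ end of the gene. The nearest Tbx5 summit to any of the 15 was 46.7 kb away. The domain would hold 0.670 Tbx5 summits at the density of all genes, and the exact Poisson 95% interval of a count of 0 reaches 3.69. The absence of assigned Tbx5 summits at Axin2 therefore does not separate it from the background. Over all genes there were 17.7 Tbx5 summits per 100 Pitx1 summits, and at that rate 15 Pitx1 summits would go with 2.65 of Tbx5.

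Of the 14 Tbx5 summits of the 6 genes, 9 lay within 200 bp of a Pitx1 summit, or 64.3% (exact Clopper-Pearson 95% interval 35.1 to 87.2), against 39.5% of the whole Tbx5 list. The 9 shared sites are 9.47% (4.42 to 17.2) of the 95 Pitx1 summits, against 7.39% of the whole Pitx1 list. Both intervals include the value of the list. Tcf7l2 held 7 of the 9, Tcf7l1 and Lef1 1 each. Shared summits lay 19 to 121 bp apart with a median of 46 bp, against 60 bp for all shared Tbx5 summits.

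The 7 shared sites of Tcf7l2 ran from its 5′ end to just beyond its 3′ end. At position 55741941 a Pitx1 summit of score 15.8 lay 121 bp from the Tbx5 summit of score 24.6 in the promoter window shown above. At 55767730 the scores were 2.89 for Pitx1 and 4.67 for Tbx5, and at 55832356 they were 11.54 and 8.95. At 55901021 they were 46.2 and 3.60, and at 55924164 they were 7.67 and 5.23. At 55941116, 7.46 kb downstream of the gene, they were 20.5 and 5.23. A low score of one factor often stood beside a higher score of the other. Over the 9 shared sites of the 6 genes Pitx1 had the larger number in 6, although scores of lists with unknown depth are not on one scale. The Spearman correlation of the 2 scores over these 9 pairs was 0.23, a description of pairs that share 2 libraries and, for 7 of them, 1 gene.

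**Figure D3:**
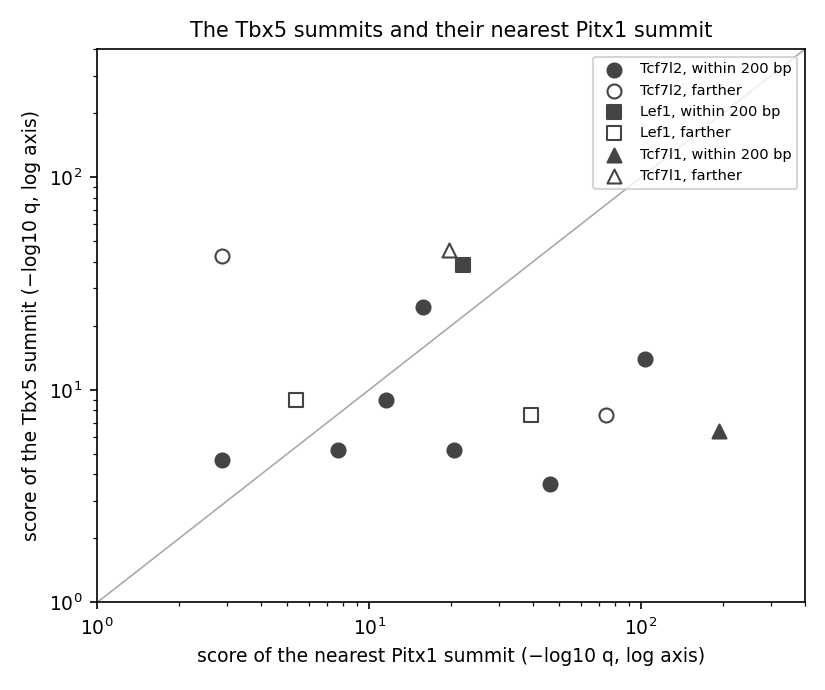
Each of the 14 Tbx5 summits is placed by its own score (vertical) and that of the nearest Pitx1 summit (horizontal), both −log10 q on log axes; filled symbols are pairs within 200 bp, and the grey line marks equal numbers. The points scatter widely: the pair with Pitx1 at 193 has Tbx5 at 6.40, and the pair with Tbx5 at 42.6 has Pitx1 at 2.89.

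The limits of the definitions cut close to some sites. The shared pair nearest to 200 bp was 121 bp apart, at the 5′ end of Tcf7l2. The pair at Lef1 formed by its highest Pitx1 summit (39.3) and the Tbx5 summit at 131137502 was 211 bp apart and so not counted as shared. The next pair beyond was the one at Tcf7l1 with a distance of 621 bp. With both of these pairs counted, within 1000 bp, the share of Tbx5 summits with a Pitx1 summit was 78.6%. The share of the whole Tbx5 list within 1000 bp was not computed, and the 39.5% given above is for 200 bp only. For the 100 kb limit, the farthest summit inside was a Pitx1 summit of Tcf7l2 at 96.1 kb with a score of 7.67, and the nearest outside was a Pitx1 summit 121 kb from Axin2, also with a score of 7.67.

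A second deposited Pitx1 list of 17783 summits is a subset of the longer list, and the sources used here do not say how it was chosen. It kept 39 of the 95 Pitx1 summits of the 6 genes, or 41.1% (31.1 to 51.6), against 32.4% of the whole list. It keeps high scores far more often than low ones, with 5.35% kept in the lowest of 10 score steps (3638 to 7003 summits each, since equal scores stay together) and 93.7% in the highest. With the list's own rate for the score step of each summit, 35.0 of the 95 would have been kept. By gene, it kept 13 of 38 at Tcf7l2 (14.8 at the list's rates), 7 of 18 at Tcf7l1 (7.41), 7 of 20 at Lef1 (5.93), 10 of 15 at Axin2 (6.12), and 1 of 2 at each of Tcf7 (0.394) and Ctnnb1 (0.402). Among the shared sites, 6 of 9 were kept, and the number at the list's rates was not computed for them. Their median Pitx1 score was 20.5, against 7.37 for the 86 other Pitx1 summits of the 6 genes, and high scores are kept more often. The 3 highest Pitx1 summits of Tcf7l1 and the highest of Tcf7l2 and Axin2 are in the second list, and the highest of Lef1, with a score of 39.3, is not.

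**Figure D4:**
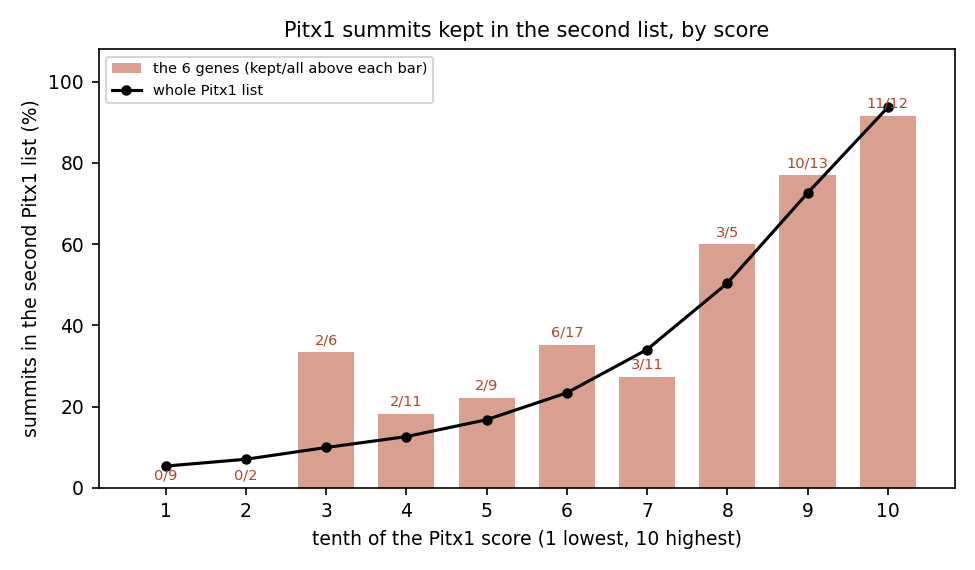
Bars give the share of the Pitx1 summits of the 6 genes that are also in the second list, by step of the score (10 steps, low to high, equal scores kept together), with kept over all summits above each bar; joined black points give the same for the whole Pitx1 list. Of the summits of the 6 genes, those kept were 0 of 9 at the lowest scores and 11 of 12 at the highest.

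Most sites lay away from listed starts. Within 1 kb of a listed start of the 6 genes stood 7 of the 95 Pitx1 summits, or 7.37% (3.01 to 14.6), and 1 of the 14 Tbx5 summits, or 7.14% (0.181 to 33.9). Of all summits on chromosomes in the promoter table, 14.3% of Pitx1 and 8.01% of Tbx5 summits lay within 1 kb of any listed start. These shares are not like measures, since the first counts starts of the summit's own gene and the second starts of any gene. Both intervals include the value of the list. The Pitx1 summit 102 bp upstream of the 5′ end of Axin2 is not counted, as it lay 2623 bp from the listed start. The 7 Pitx1 summits were 3 at Tcf7l2, 3 at Lef1 and 1 at Tcf7l1. Inside gene bodies lay 63 of the 95 Pitx1 summits, or 66.3%, against 60.6% of all Pitx1 summits assigned to a gene.

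Each of 5 further lists of pathway genes, written down with earlier results of these data known, held fewer Pitx1 summits per length, pooled over its genes, than the 8.43 per 100 kb of the 6 genes pooled. Single genes did not follow that order: Cdx2 (30.8 per 100 kb), Fzd2 (21.3) and Bcl9l (18.6) exceeded Tcf7l2 (10.9). So did Wnt10a (14.7), Fzd4 (12.8), Wnt11 (12.7), Fzd7 (11.9), Lgr4 (11.3) and Tle5 (10.96). The value of Cdx2 rests on 7 summits in a domain of 22.7 kb, with scores of at most 5.92. Tcf7 (2.66) and Ctnnb1 (1.55) lay below the pooled value of every list. The 10 frizzled receptor genes had 6.30 Pitx1 summits per 100 kb (4.72 to 8.24), all 10 with at least 1, and 0.833 Tbx5 summits (0.335 to 1.72), with 6 of 10 occupied. Fzd10 and Fzd2 held 12 Pitx1 summits each and Fzd7 held 10, while Fzd7 held 2 Tbx5 summits and Fzd1, Fzd2, Fzd8, Fzd9 and Fzd10 held 1 each. The interval of this list overlaps the 6.82 to 10.3 of the 6 genes for Pitx1. No test compared the lists, which differ in how their genes were chosen.

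Among 20 target and feedback genes, 17 had Pitx1 summits, at 5.37 per 100 kb (4.42 to 6.46), and 9 had Tbx5 summits, at 0.532 (0.266 to 0.952). Lgr4 and Lgr5, receptors for R-spondins, held 12 Pitx1 summits each, as did Sp8, a transcription factor of the apical ridge. Nkd1, a feedback inhibitor, had 3 Tbx5 summits, and Apcdd1, Ccnd1, Lgr5 and 5 others had 1 each. Cdx1 and T had none of either factor. Axin2, a feedback gene as well, had more Pitx1 summits than any gene of this list, 15, but per 100 kb its 9.28 lay below Cdx2 (30.8), Lgr4 (11.3), Sp8 (10.55) and Sp5 (9.72).

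The nuclear partners, which assist or oppose β-catenin on chromatin, had 4.47 Pitx1 summits per 100 kb (3.59 to 5.49) in 13 of 16 genes and 1.14 Tbx5 summits (0.724 to 1.71) in 6 of 16. The corepressor genes Tle4 and Tle3 led with 26 and 18 Pitx1 summits, followed by Ctbp2 with 11. For Tbx5, Tle3 held 11, more than the 9 of Tcf7l2, Tle4 held 5 and Tle1 held 3. Ctbp1, Pygo1 and Pygo2 had none of either factor. For Tbx5 the density of these genes is close to the 1.24 per 100 kb of the 6 genes.

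For Pitx1, the ligand list and the destruction complex list lay nearest to the 2.35 per 100 kb of all genes. For Tbx5 the targets and feedback genes lay nearest to the 0.415 of all genes. The 15 Wnt and R-spondin genes had 3.40 Pitx1 summits per 100 kb (2.56 to 4.43) in 13 genes and 0.681 Tbx5 summits (0.340 to 1.22) in 6 genes. Wnt11 led with 12 Pitx1 and 5 Tbx5 summits, Wnt5a held 10 and 2, and Wnt5b held 7 Pitx1 summits. Rspo1 had 1 Tbx5 summit, and Rspo4 and Wnt3a had none of either factor. The list of the destruction complex and its transducers has 18 genes, among them the cell adhesion genes Cdh1, Cdh2 and Ctnna1. It had 2.83 Pitx1 summits per 100 kb (2.15 to 3.65) in 11 genes and 0.682 Tbx5 summits (0.373 to 1.14) in 6 genes. Cdh2 held 17 of its 58 Pitx1 and 4 of its 14 Tbx5 summits, so the density rests partly on adhesion genes. Btrc held 10 and 2, Csnk1a1 6 and none, and Lrp6, a Wnt co-receptor, 5 and 4. Axin1, Csnk1d, Ctnna1, Dvl1, Dvl2, Dvl3 and Gsk3a had none of either factor. Axin1 and Axin2, whose proteins share the scaffold role, thus had 0 and 15 Pitx1 summits in domains of 67.0 and 162 kb.

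**Figure D5:**
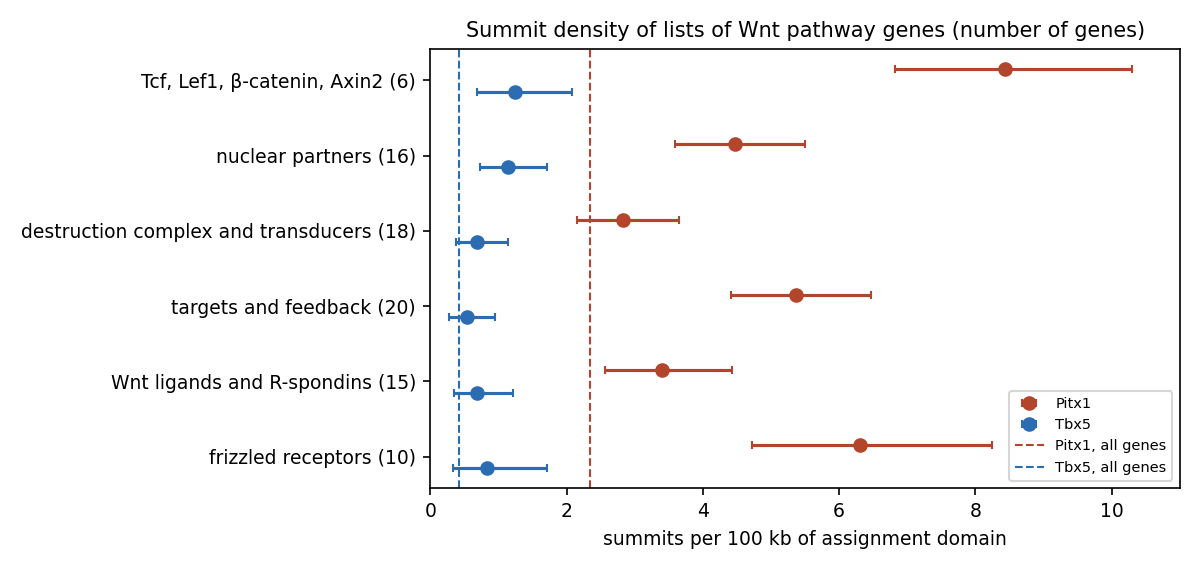
Points give Pitx1 (red) and Tbx5 (blue) summits per 100 kb of assignment domain for 6 lists of Wnt pathway genes, with the number of genes in brackets, exact Poisson 95% intervals and dashed lines at the values over all genes. The top row holds the 6 genes described here, at 8.43 for Pitx1 and 1.24 for Tbx5. The list of the destruction complex and transducers, which includes some cell adhesion genes, lies at 2.83 and 0.682, nearest to the line for Pitx1.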

How the data were processed

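The authors deposited ChIP-seq summit lists on build mm10. HOMER, MACS2 2.1.1.20160309, Bowtie2 2.2.6 and Bowtie 1.1.2 are named, without their use, per the submitters' processing notes. The score column of the deposited lists was taken to be −log10 q, the form MACS2 gives in summit files; the second deposited Pitx1 list carries a further score, which is not explained and was not used. The 54941 Pitx1 summits take 862 distinct scores, so ties are common. The series has an input sample titled for each factor's limb and stage, not analysed here; its use in peak calling, the depth and later filters are not stated in the labels. The peak numbers skip 5 of 23 at Tcf7l1, 3 of 41 at Tcf7l2 and 3 of 18 at Axin2 between the first and last Pitx1 summit of the gene; peaks with these numbers are not analysed here.

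Summits were assigned to the nearest RefSeq protein-coding gene (GRCm38.p6) within 100 kb, on chromosomes 1 to 19, X and Y; inside overlapping genes the shorter gene was taken. Assignment was tested on simulated positions. Intervals are exact Poisson for counts and densities and exact Clopper-Pearson for shares, at 95%, and cover counting only. Promoter sequences and strands are from RefSeq; proteins and exons are not used here. Python 3.11.15, numpy 2.4.6, pandas 2.3.3, scipy 1.17.1 and matplotlib 3.10.9 were used. All 6 genes are described, with each gene's highest summit per factor, all shared pairs, and in each pathway list the 3 genes with the most summits of each factor and those with none. The members, lists and rules were chosen with earlier results of these data known. Distance limits, gene types, score, list and sharing distance were varied.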

Additional observations from a re-analysis of the deposited data

How the results depend on the processing

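Of 62 values recomputed under 10 alternatives, 50 stayed within the interval of the reported value or, for counts, within 1.5 times of it. Counts from part of a list or part of the genes could not rise, and the alternatives largely reuse the same summits. The 50 of 62 is therefore no measure of how stable the results are. The median Tbx5 score under the second Pitx1 list could not move, because the Tbx5 list was unchanged. Intervals on the 14 Tbx5 summits are wide, 35.1 to 87.2% for the shared share, so staying within them says little. The Pitx1 count of 95 became 60 when genes of every biotype could take a summit, since 35 summits went to long non-coding genes, and the Pitx1 density ratio became 4.76. The summits above each list's median score gave counts of 51 Pitx1 and 7 Tbx5 summits and a share of 58.8% in the second list. The 32.4% of the whole Pitx1 list covers all scores and is not the value to set beside it. The list's own share above its median score was not computed, and its score steps 6 to 10 kept 23.4 to 93.7%. The second Pitx1 list gave 39 summits, a density ratio of 4.77 and a median score of 22.2. Without Tcf7l2, chosen after seeing the data, the counts were 57 Pitx1 and 5 Tbx5 summits and the Tbx5 density ratio 1.55. The shared share of Pitx1 summits was then 3.51%, against 7.39% of the whole Pitx1 list. That of Tbx5 summits was 40% (5.27 to 85.3), against 39.5% of the whole Tbx5 list. With no distance limit, also chosen after seeing the data, the counts were 117 and 20, and the density ratio was not run. No paired analysis was possible because each factor has 1 sample and no test was made. Read depth is unknown, so the lengths of the lists and the scores of the factors are not on one scale.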

Other observations

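The highest scores of both factors in the neighbourhood of Tcf7l2 lay beyond the 100 kb limit and so outside the counts above. They were singled out after their values were seen. In the gap of 353 kb between Tcf7l2 and the next protein-coding gene downstream, Habp2, stood 31 Pitx1 and 8 Tbx5 summits, 6 of each shared. Of these, 9 Pitx1 summits and 1 Tbx5 summit lay within 100 kb of Tcf7l2 and are in the counts above. Some others lay nearer to Habp2, such as the Pitx1 summit at 56218439, 68.7 kb from it. A Pitx1 summit at position 56100370 of chromosome 19 scored 359, rank 62 of 54941, and a Tbx5 summit at 56099904 scored 417, rank 18 of 10273. They lay 466 bp apart, 167 and 166 kb from Tcf7l2 and 187 kb each from Habp2, so they do not count as shared. Within 10 kb of this Tbx5 summit stood 8 Pitx1 and 3 Tbx5 summits, itself included. They include 2 shared pairs, one 10 bp apart with scores of 54.4 for Pitx1 and 60.7 for Tbx5, and one 39 bp apart with scores of 5.92 and 17.0. At 56086824 a Pitx1 summit of score 137 stood 96 bp from a Tbx5 summit of score 4.67. Both factors thus reached higher scores in this gap than at any summit counted for the 6 genes, whose highest were 259 and 45.7.

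Lef1 and Axin2 also had shared sites beyond the limit. A Pitx1 summit of score 13.6 and a Tbx5 summit of score 5.23 lay 7 bp apart, 187 kb upstream of Lef1. Downstream of Axin2, at 130 kb, a Pitx1 summit of score 6.49 and a Tbx5 summit of score 3.10 lay 139 bp apart, so the statement that Axin2 has no Tbx5 summit holds within 100 kb only. For Ctnnb1, 3 Pitx1 summits and no Tbx5 summit lay beyond the limit, and for Tcf7 and Tcf7l1 there were none of either factor.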
